A study of Mus musculus with 11 samples.

Results

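Caveolae are small flask-shaped pits of the plasma membrane, and the genes described here encode the proteins that build and coat them. The set held 7 genes, picked by symbol from the 46469 symbols of the tables: the caveolins Cav1 and Cav2, the cavins Ptrf (cavin-1), Sdpr (cavin-2) and Prkcdbp (cavin-3), the ATPase gene Ehd2 and the F-BAR gene Pacsin2. The files carry the older cavin symbols, and the RefSeq table of the same assembly names them Cavin1, Cavin2 and Cavin3. The genes were chosen with their differences between genotypes in these libraries already known. Their levels and differences are therefore a description, and no p-value is given for them. All 7 passed the filter on low values and stood among the 14940 genes fitted.

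RNA was sequenced from mouse embryonic fibroblasts with no intact copy of the β-actin gene (Actb -/-, called KO, 3 libraries), with 1 intact copy (Actb +/-, Het, 4 libraries) and with both (Actb +/+, WT, 4 libraries). All cells were of the BALB/c strain, came from embryos of 10.5 days, grew in high-glucose DMEM with fetal bovine serum, and were lysed in TRI Reagent at 70% confluence. Libraries were poly(A) selected with a stranded TruSeq kit. The series calls the replicates biological without naming the embryos or cultures behind them, so the spread between libraries may be partly technical. The submitters dropped 1 further KO library that had failed their quality control.

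Caveolin-1 is the membrane-embedded protein without which most cells form no caveolae. Caveolin-2 joins it in mixed oligomers and needs it to leave the Golgi. Cavin-1 coats the caveolin scaffold and is required for the pit to form, whereas cavin-2 and cavin-3 join the coat through cavin-1. EHD2 is an ATPase that sits around the neck and holds the pit at the surface, and pacsin-2 is a curvature-shaping protein that binds the membrane of the neck. Fibroblasts are rich in caveolae, which flatten when the membrane is stretched and are tied to actin stress fibres through filamin A.

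The promoters of 4 members are shown because Sdpr differed most between the genotypes, Cav1 and Cav2 lie side by side on chromosome 6, and Ptrf differed little. They are the 250 bases before each gene's first listed start, from RefSeq on GRCm38.p6, read 5′ to 3′ in the direction of the gene. Their positions are chr1:51288876-51289125 for Sdpr (plus strand), chr6:17306085-17306334 for Cav1 (plus strand), chr6:17280935-17281184 for Cav2 (plus strand) and chr11:100970618-100970867 for Ptrf (minus strand). Capitals mark matches, on either strand, to any of 5 motifs, and no match overlapped another. The core promoter box was searched as TATAAA, the motif of TEAD factors as GGAATG and the GC box as GGGCGG. For AP-1 the search used TGANTCA, and the remaining motif was CCAAT.
Sdpr: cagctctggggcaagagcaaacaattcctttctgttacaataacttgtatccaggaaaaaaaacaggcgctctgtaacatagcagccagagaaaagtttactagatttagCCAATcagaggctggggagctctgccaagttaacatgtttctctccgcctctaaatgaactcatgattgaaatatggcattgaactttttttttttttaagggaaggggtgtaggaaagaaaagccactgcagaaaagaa
Cav1: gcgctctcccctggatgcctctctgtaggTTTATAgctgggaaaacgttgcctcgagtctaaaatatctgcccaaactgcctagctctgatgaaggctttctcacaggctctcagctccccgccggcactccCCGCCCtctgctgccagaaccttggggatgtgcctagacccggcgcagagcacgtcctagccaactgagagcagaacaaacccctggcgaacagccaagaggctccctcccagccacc
Cav2: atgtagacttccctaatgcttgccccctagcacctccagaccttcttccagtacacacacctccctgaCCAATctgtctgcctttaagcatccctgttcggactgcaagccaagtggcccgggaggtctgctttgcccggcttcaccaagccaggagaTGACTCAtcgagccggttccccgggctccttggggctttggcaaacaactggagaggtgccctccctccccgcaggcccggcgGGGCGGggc
Ptrf: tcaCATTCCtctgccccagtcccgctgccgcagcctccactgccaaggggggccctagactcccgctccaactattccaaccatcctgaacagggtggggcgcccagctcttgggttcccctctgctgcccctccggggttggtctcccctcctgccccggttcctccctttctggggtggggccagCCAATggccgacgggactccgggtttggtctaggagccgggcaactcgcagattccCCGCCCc
The Sdpr promoter was the poorest in GC of the 6 members matched, at 40.4% with 2 CpG dinucleotides, and its only match was a CCAAT box at bases -140 to -136 from the start. The Cav1 promoter (59.6% GC, 10 CpG) held a TATAAA on the opposite strand at -221 to -216 and a GC box at -118 to -113. In the Cav2 promoter (62% GC, 10 CpG) the matches were a CCAAT box at -182 to -178, a TGANTCA at -92 to -86 and a GC box at -9 to -4. That of Ptrf (67.6% GC, 12 CpG) held a GGAATG on the opposite strand at -247 to -242, a CCAAT box at -63 to -59 and a GC box at -7 to -2. Ehd2 and Pacsin2 also matched the RefSeq table, with 58% and 62% GC at their first starts, and Prkcdbp had no entry. Over all 27025 promoters of the table the median was 52% GC and 6 CpG. Of these promoters 34.5% held CCAAT, 32.9% the GC box, 13.0% TATAAA, 12.6% GGAATG and 6.87% TGANTCA. The CArG box, searched by its consensus on both strands, was in 1.40% of all promoters and in no window of the 6 members. A match describes the letters in the window and shows no binding.

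Actb served as the check of the labels. It measured 44.8 to 47.1 FPKM (fragments per length of transcript and size of library) in KO, 815 to 868 FPKM in Het and 1076 to 1525 FPKM in WT, in the order of the labelled copies. A library had 13885 to 14202 genes at 1 FPKM or more, and its depth, estimated from the Cufflinks intervals, was 61.9% (WT 3) to 124% (WT 4) that of WT 1. Of the fibroblast markers, Vim, Fn1, Col1a1 and S100a4 were high in every genotype. Col1a2 averaged 192 FPKM in Het, but 11.5 in KO and 6.83 in WT. Lum averaged 0.0465 FPKM or less in each genotype, and Pdgfra and Thy1 averaged 0.211 and 0.0247 FPKM in WT. Endothelial genes, markers of another cell type rich in caveolae, summed to 4.60 to 6.49 FPKM in KO, 3.13 to 4.83 in Het and 3.16 to 10.0 in WT over 10 genes, of which 9 stayed under 1 FPKM in every library of each genotype.

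The WT libraries differed in their dependence on transcript GC content, with WT 4 and WT 1 at opposite ends. Across 13773 genes, the correlation of a gene's deviation from its group mean with the GC content of its transcript was 0.56 in WT 4, against -0.53 in WT 1, -0.31 in WT 3 and 0.23 in WT 2 (across genes, which are not independent replicates). The members fell on both sides of this trend. The low-GC Cav2 (37.5%), Cav1 (42.6%) and Sdpr (44.4%) were lowest in WT 4 among the WT libraries, and the GC-rich Pacsin2 (52.7%), Ehd2 (54.5%), Prkcdbp (56.4%) and Ptrf (57.3%) were highest in it. Differences of Cav1, Cav2, Prkcdbp, Ptrf and Ehd2 from WT are therefore also given without WT 4. In KO the same correlation ran from -0.25 (KO 1) to 0.30 (KO 4), and in Het from -0.29 (Het 2) to 0.25 (Het 4). Leaving out WT 4 removes only 1 end of the trend in WT, since WT 1 stays in. KO 4 and Het 4, which deviated in the same direction as WT 4, also stay in. The omission is therefore no correction for GC content.

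**Figure D1:**
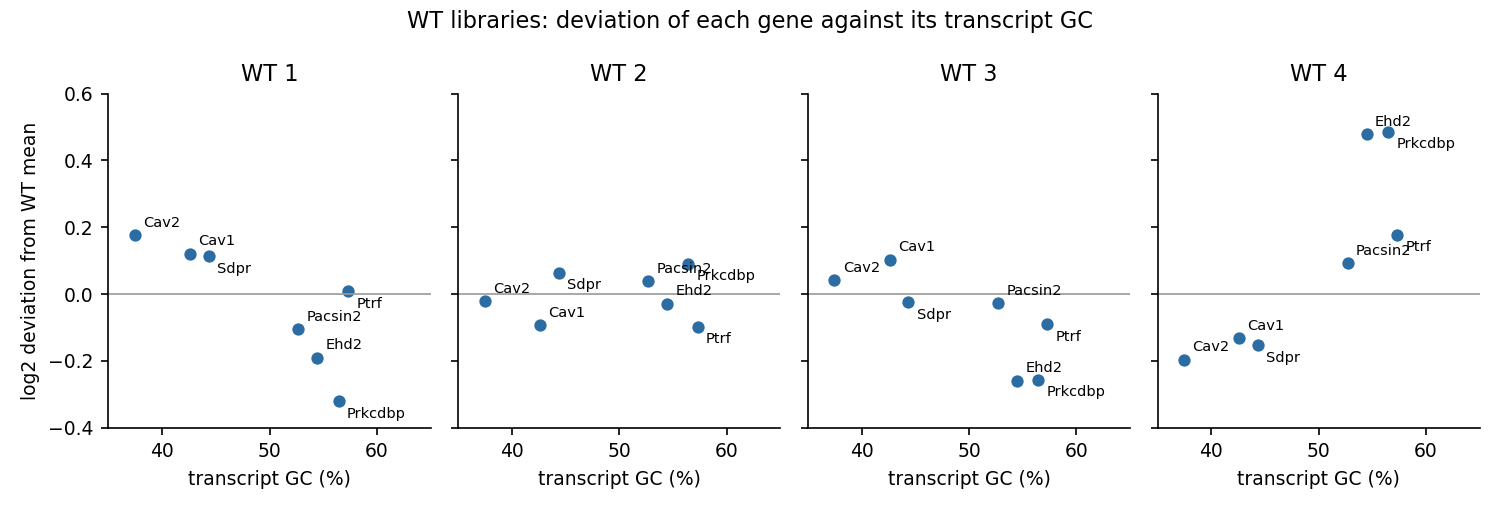
Deviation of each of the 7 genes from its WT mean (vertical axis, log2 of FPKM + 1) against the GC content of its transcript (horizontal axis, percent), with 1 panel for each WT library and 1 point for each gene. In WT 4 the 3 genes under 45% GC lie below 0 and the 4 genes above 50% lie above it, with Ehd2 and Prkcdbp at 0.48 and 0.49.

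Sdpr, the cavin-2 gene, showed the widest spread of the set. It measured 84.7, 95.1 and 91.5 FPKM in KO 1, 3 and 4, 2.12, 2.53, 2.27 and 1.86 FPKM in Het 1 to 4, and 24.8, 23.9, 22.5 and 20.5 FPKM in WT 1 to 4. The groups did not overlap, and Het was not between the other 2 genotypes but far below both. The level averaged 90.4 ± 5.27 FPKM in KO (SD over 3 libraries), 2.19 ± 0.281 in Het (SD over 4) and 22.9 ± 1.90 in WT (SD over 4), which made KO 3.95 times WT and Het 0.0958 times WT. In log2(FPKM + 1), where the added 1 shrinks the differences of weakly expressed genes, the difference was 1.94 ± 0.09 for KO minus WT and -2.90 ± 0.08 for Het minus WT (standard error). KO minus Het came to 4.84 ± 0.09. These differences lay between 1.88 and 1.98, between -2.96 and -2.85 and between 4.79 and 4.89 when each library in turn was left out. Sdpr (gene555) lies on chromosome 1, 51289126 to 51302960, in GRCm38.

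Prkcdbp, the cavin-3 gene, was higher in KO than in Het and on average higher in Het than in WT. Its levels were 18.8, 19.0 and 22.9 FPKM in KO 1, 3 and 4, 7.78, 8.64, 13.6 and 12.4 FPKM in Het 1 to 4, and 4.19, 5.90, 4.42 and 8.07 FPKM in WT 1 to 4. KO lay above every other library, and Het 1 lay under WT 4. Group means were 20.2 ± 2.33 FPKM in KO (SD over 3 libraries), 10.6 ± 2.84 in Het (SD over 4) and 5.65 ± 1.78 in WT (SD over 4). The log2 difference was 1.71 ± 0.22 for KO minus WT and 0.81 ± 0.20 for Het minus WT (standard error), and without WT 4 these were 1.87 and 0.97. The gene is short (chromosome 7, 105480616 to 105482197) and the least precisely estimated of the set. The half-width of its Cufflinks interval was between 14.8% and 41.9% of the value in a library, against 4.86% to 5.83% for Ptrf.

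Ptrf, the cavin-1 gene on which the coat depends, was with Pacsin2 the steadiest in level. It measured 147, 145 and 164 FPKM in KO 1, 3 and 4, 128, 129.8, 136 and 139 FPKM in Het 1 to 4, and 134, 124, 125 and 151 FPKM in WT 1 to 4. KO lay above Het, and both overlapped WT. The difference was 0.19 ± 0.08 for KO minus WT and 0.00065 ± 0.07 for Het minus WT (standard error). The highest library was 1.32 times the lowest, as it was for Pacsin2. Without WT 4 the differences from WT were 0.24 for KO and 0.056 for Het.

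The cavins thus stood in different proportions in the 3 genotypes. FPKM are scaled to transcript length, so levels of the 3 genes can be summed. Sdpr made up 34.4 ± 1.96% of the summed cavin FPKM in KO (SD over 3 libraries), 1.51 ± 0.238% in Het (SD over 4) and 14.2 ± 1.90% in WT (SD over 4). The share of Prkcdbp was 7.69 ± 0.487% in KO, 7.20 ± 1.58% in Het and 3.45 ± 0.877% in WT. Ptrf supplied the rest, at 57.9 ± 1.61% in KO, 91.3 ± 1.46% in Het and 82.3 ± 1.40% in WT. Het and WT, whose shares of Sdpr did not overlap, had overlapping summed levels, of 138 to 153 FPKM in Het and 152 to 179 FPKM in WT, while KO had 250.8 to 278 FPKM.

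**Figure D2:**
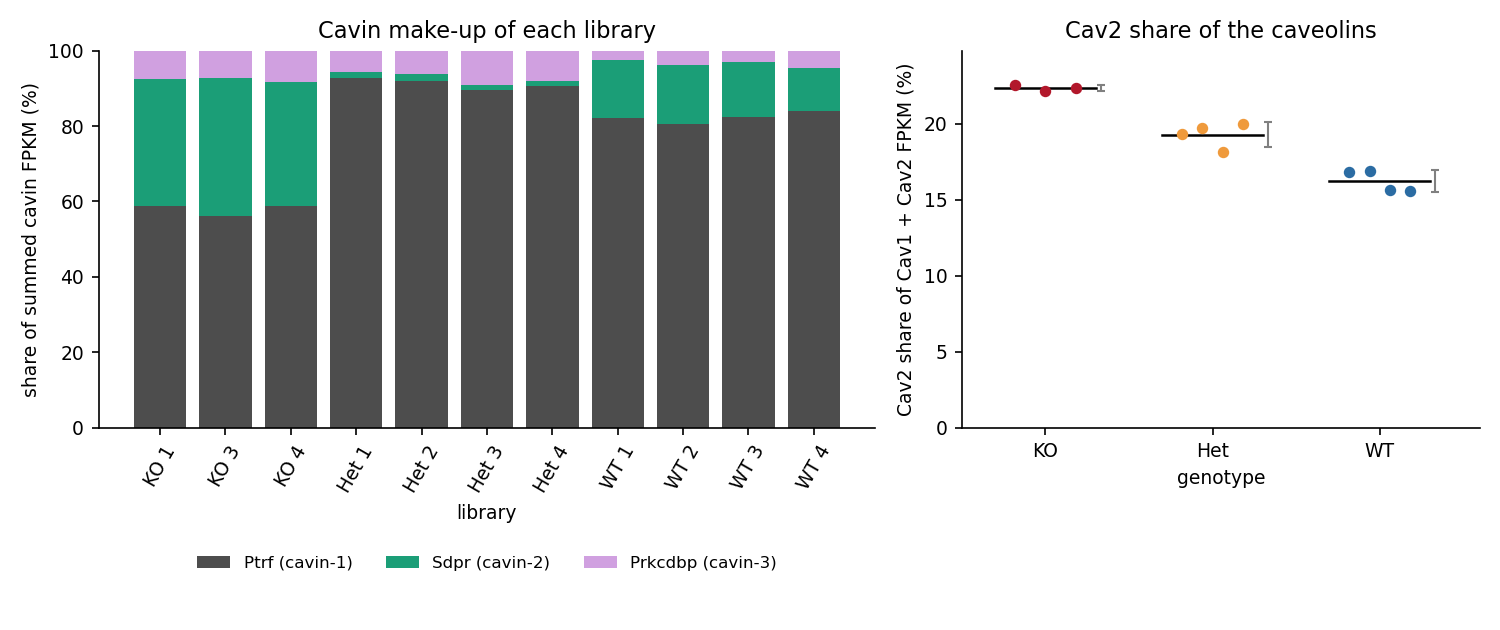
Left, the share of the summed cavin FPKM (percent) taken by Ptrf, Sdpr and Prkcdbp in each library, as stacked bars. Right, the share of Cav2 in the summed FPKM of Cav1 and Cav2 (percent), where points are libraries, black lines are means and grey bars the SD. Sdpr takes 32.9% to 36.6% in KO, 1.21% to 1.79% in Het and 11.4% to 15.5% in WT, and the Cav2 shares of the 3 genotypes do not overlap.

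Cav1, the caveolin-1 gene, was highest in KO and lowest in Het. It measured 174, 159 and 162 FPKM in KO 1, 3 and 4, 107, 110.3, 102 and 97.6 FPKM in Het 1 to 4, and 152, 131, 149.7 and 127 FPKM in WT 1 to 4. No 2 groups overlapped, and KO 3 and WT 1 came closest. The means were 165 ± 8.12 FPKM in KO (SD over 3 libraries), 104 ± 5.58 in Het (SD over 4) and 139.8 ± 12.6 in WT (SD over 4). The log2 difference was 0.24 ± 0.08 for KO minus WT, -0.41 ± 0.07 for Het minus WT and 0.66 ± 0.08 for KO minus Het (standard error). That of KO minus WT was 0.20 without KO 1, 0.21 without WT 2 and 0.14 without scaling between libraries. Without WT 4 the differences from WT were 0.19 for KO and -0.46 for Het.

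Cav2, its partner, was higher in KO than in either other genotype, while Het and WT overlapped. Its levels were 50.8, 45.2 and 46.6 FPKM in KO 1, 3 and 4, 25.7, 27.1, 22.7 and 24.4 FPKM in Het 1 to 4, and 30.7, 26.6, 27.8 and 23.5 FPKM in WT 1 to 4. The averages were 47.6 ± 2.89 FPKM in KO (SD over 3 libraries), 25.0 ± 1.88 in Het (SD over 4) and 27.1 ± 2.99 in WT (SD over 4). KO minus WT was 0.79 ± 0.09 and Het minus WT -0.11 ± 0.08 on the log2 scale (standard error). Without WT 4 KO minus WT was 0.72. When each library in turn was left out, Het minus WT lay between -0.18, without WT 4, and -0.05. With the GC trend of each library removed, an alternative chosen after seeing the data, it was -0.14.

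The 2 caveolins did not keep 1 ratio. Cav2 made up 22.3 ± 0.208% of the summed FPKM of Cav1 and Cav2 in KO (SD over 3 libraries), 19.3 ± 0.822% in Het (SD over 4) and 16.3 ± 0.723% in WT (SD over 4), and the libraries of the 3 genotypes did not overlap. Expressed as a ratio, Cav1 was 3.43 to 3.52 times Cav2 in KO, 4.0 to 4.51 times in Het and 4.91 to 5.42 times in WT. Caveolins and cavins together with Ehd2 and Pacsin2 summed to 578 ± 14.0 FPKM in KO (SD over 3 libraries), 370.1 ± 8.09 in Het (SD over 4) and 414 ± 15.0 in WT (SD over 4). In bulk RNA such sums cannot tell fewer cells expressing a gene from less RNA per cell.

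**Figure D3:**
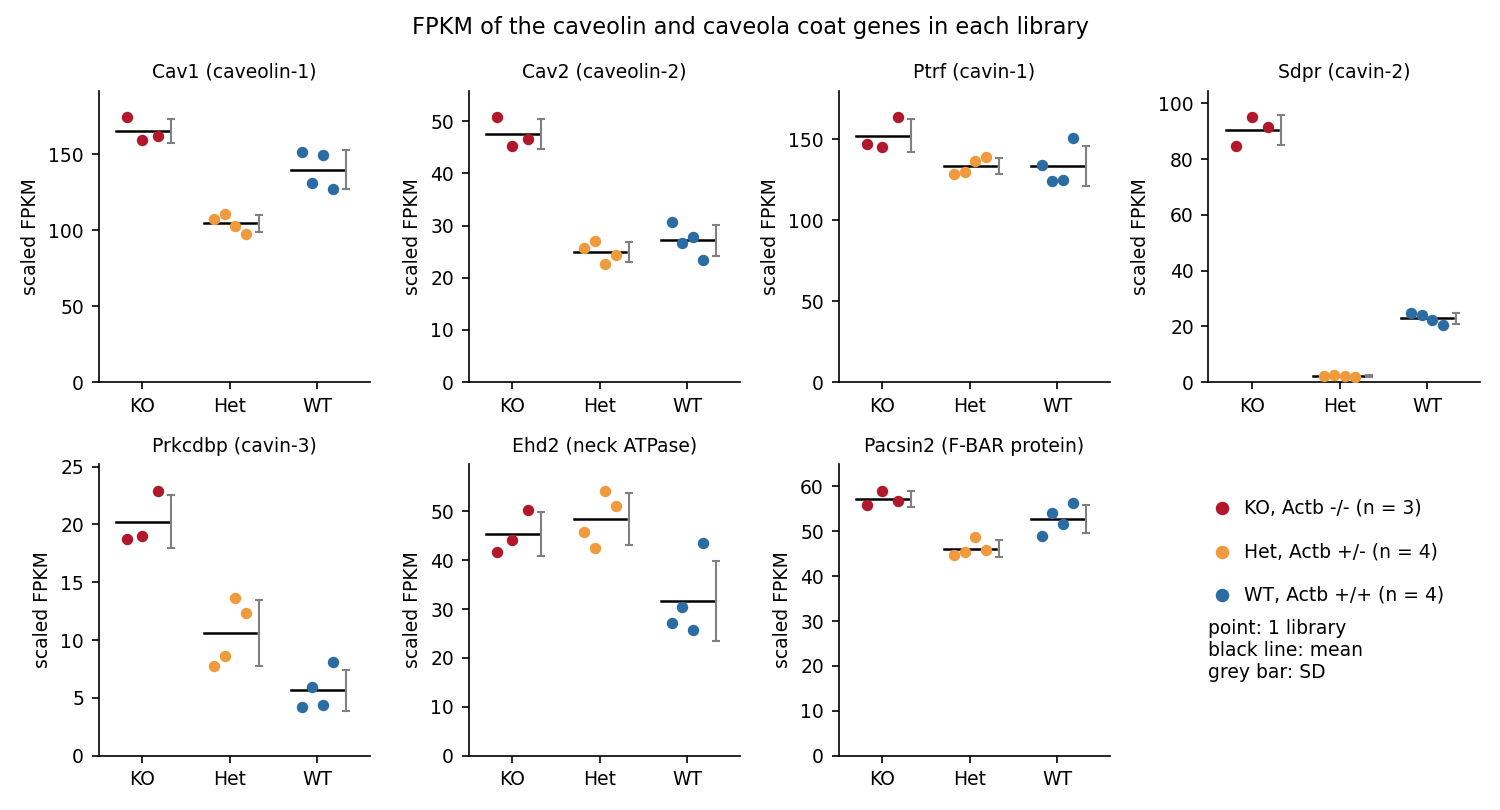
Scaled FPKM (vertical axes, each from 0) of the 7 genes in KO, Het and WT. Points are libraries, black lines the group means and grey bars the SD, and the axis of each panel has its own range. Sdpr separates the genotypes most, and the high WT point of Ehd2 and of Prkcdbp is WT 4.

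Ehd2, which encodes the neck ATPase, was higher on average in both mutant genotypes than in WT. It measured 41.6, 44.1 and 50.3 FPKM in KO 1, 3 and 4, 45.8, 42.4, 54.2 and 51.2 FPKM in Het 1 to 4, and 27.1, 30.4, 25.8 and 43.6 FPKM in WT 1 to 4. WT 4 lay inside the ranges of KO and of Het, whereas the other WT libraries lay below both. The log2 difference was 0.53 ± 0.16 for KO minus WT and 0.62 ± 0.15 for Het minus WT (standard error), or 0.68 and 0.77 without WT 4. KO minus WT was 0.45 without KO 4, 0.44 without WT 3 and 0.43 without scaling. KO and Het overlapped, with a difference of -0.09 and a 95% interval from -0.45 to 0.26.

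Pacsin2, the curvature-shaping member, followed the order of Cav1 in a narrow range. Its levels were 55.8, 59.1 and 56.7 FPKM in KO 1, 3 and 4, 44.7, 45.4, 48.8 and 45.7 FPKM in Het 1 to 4, and 48.9, 54.1, 51.7 and 56.2 FPKM in WT 1 to 4. Het lay below both other groups, with Het 3 just under WT 1, and KO overlapped WT through WT 4. The difference was 0.12 ± 0.06 for KO minus WT and -0.19 ± 0.05 for Het minus WT (standard error).

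**Figure D4:**
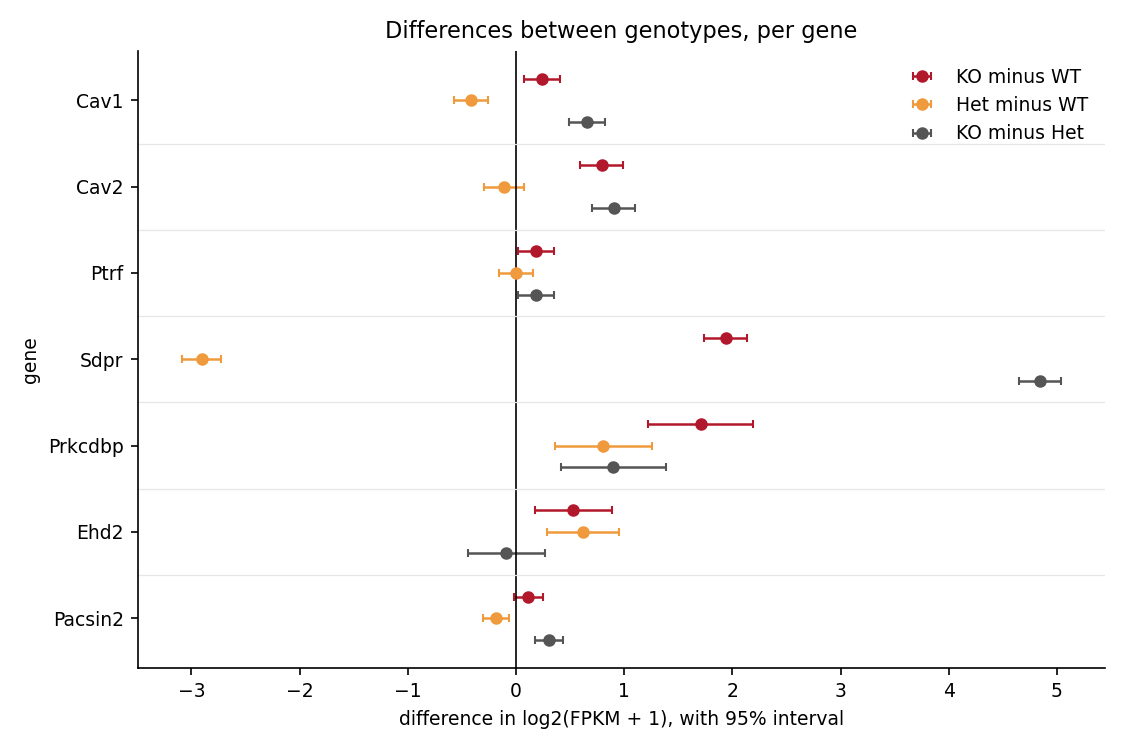
Differences between genotypes in log2(FPKM + 1) for each of the 7 genes (horizontal axis), with points for the estimate and bars for the 95% interval of the limma fit. Sdpr lies at 1.94 for KO minus WT and -2.90 for Het minus WT, Prkcdbp and Ehd2 are above 0 in both, and Ptrf for Het minus WT lies at 0.

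Set against the whole table, the members describe how they were chosen, and nothing is read from the number that lay on either side of 0. All 7 estimates were above 0 for KO minus WT. The median over all genes was 0.0089 in that comparison, 0.0081 for Het minus WT and 0.0071 for KO minus Het. For KO minus WT limma, with Benjamini-Hochberg adjustment over all genes and a threshold of 0.05, called 23.3% of all genes higher and 23.8% lower. These shares and those that follow count only genes past the threshold, so they are no background for a count above 0. For Het minus WT 3 estimates were above 0, that of Ptrf by 0.00065, and 4 below it, with 21.7% of all genes called higher and 22.1% lower. KO minus Het was above 0 for all but Ehd2, with 22.0% and 22.2% over all genes. Het was also set against the midpoint of KO and WT, where it would lie if the level followed the number of intact copies evenly on the log2 scale. Ehd2 lay above that midpoint by 0.36, or by 0.30 to 0.43 with 1 library left out. Sdpr (-3.87), Cav1 (-0.54), Cav2 (-0.51), Pacsin2 (-0.25) and Ptrf (-0.09) lay below it, and Prkcdbp was at -0.05, or at 0.03 without WT 4. Of all genes 21.3% were called above the midpoint and 22.8% below it, and the median over all genes was 0.0039. KO against WT and Het against WT share the 4 WT libraries, so their values are given side by side and not correlated. Without scaling between libraries, 37.1% of the called genes were higher in KO against WT, compared with 49.4% with it, and 36.5% compared with 49.8% in KO against Het.

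Markers of smooth muscle, another cell type with many caveolae, moved with the KO values. Their 10 genes summed to 7345 to 8146 FPKM in KO, 241 to 257 FPKM in Het and 99.5 to 118 FPKM in WT, led by Acta2, the smooth muscle α-actin. Of 9 tested 8 rose in KO, where 23.3% of all genes rose. Myh11, the defining smooth muscle myosin, averaged only 0.915 FPKM in KO, 0.386 in Het and 0.463 in WT. Adipocyte markers summed to 50.7 to 55.1 FPKM in KO, 16.0 to 18.1 in Het and 6.17 to 7.97 in WT. All 4 of them that were tested rose in KO, against 23.3% of all genes. Plin4, a lipid droplet protein, averaged 23.9 FPKM in KO, 0.624 in Het and 0.158 in WT, and Pparg, the regulator of fat cell formation, 16.0 FPKM in KO, 4.29 in Het and 6.04 in WT. Lpl, lipoprotein lipase, averaged 10.4 FPKM in KO, 11.3 in Het and 0.798 in WT, and Fabp4, a fatty acid carrier, 1.83 FPKM in KO, 0.864 in Het and 0.270 in WT. Adipoq averaged 0.0327 FPKM in KO and was listed at 0 in Het and WT, and Lep and Cidec were listed at 0 in every library. The fibroblast markers moved with genotype too. Their 10 genes summed to 3627 to 4299 FPKM in KO, 2348 to 2675 in Het and 1491 to 1965 in WT. Of 9 tested 9 rose in KO, against 23.3% of all genes, and 8 in Het, against 21.7%. In Het, where 21.7% of all genes rose and 22.1% fell, 6 of the 9 smooth muscle markers tested rose and 1 fell. That was Tagln (-0.15, limma adjusted p = 0.049). Of the 4 adipocyte markers tested 2 rose in Het and 1 fell, Pparg (-0.41, limma adjusted p = 0.00782). The part of these markers in the caveola values was not tested.

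The other caveolin, cavin, EHD and pacsin genes numbered 7, of which 4 were tested. Cav3, the muscle caveolin, was listed at 0 in all 11 libraries, and Murc (cavin-4), the muscle cavin, averaged 0.456 ± 0.246 FPKM in KO (SD over 3 libraries), 0.412 ± 0.0855 in Het (SD over 4) and 1.07 ± 0.261 in WT (SD over 4), too low to test. Pacsin1, the neuronal pacsin, averaged 0.0135 FPKM in KO, 0.0437 in Het and 0.200 in WT. Of the 4 genes tested 1 fell in KO, where 23.8% of all genes fell, and in Het 1 rose and 2 fell, where 21.7% and 22.1% of all genes did. The medians were -0.13 and -0.04 against 0.0089 and 0.0081 over all genes. Ehd4, a paralogue of Ehd2 that works in endosomal traffic, fell to 9.29 ± 0.970 FPKM in KO (SD over 3 libraries) and 21.2 ± 0.795 in Het (SD over 4), against 27.6 ± 0.771 in WT (SD, n = 4). Its log2 difference from WT was -1.48 in KO (limma adjusted p = 3.41e-08) and -0.37 in Het (limma adjusted p = 0.000773), and no 2 groups overlapped. Ehd1, which drives endocytic recycling, measured 48.8 to 57.6 FPKM in KO, 38.3 to 45.6 in Het and 50.5 to 86.6 in WT, with WT 4 highest. It fell in Het (-0.65, limma adjusted p = 0.00423), and its difference of -0.27 in KO was past the threshold without WT 1 (-0.39) and with the GC trend removed (-0.46), while without WT 4 it was -0.14 (limma adjusted p = 0.368). Ehd3 rose by 0.29 in Het, a call lost without Het 1, Het 2, Het 4, WT 2 or WT 4 (0.23 to 0.30) and with no filter (0.29). Pacsin3 differed by 0.43 in Het (limma adjusted p = 0.201), or by 0.69 and past the threshold without WT 4.

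Proteins described at caveolae, a list of receptors, kinases and linkers, had 10 of 16 genes tested. In KO 5 rose and 2 fell, against 23.3% and 23.8% of all genes, and in Het 4 rose and 2 fell, against 21.7% and 22.1%. The medians were 0.33 and 0.14. Flna, filamin A, which links caveolae to actin filaments, measured 574 ± 25.3 FPKM in KO (SD over 3 libraries), 149 ± 6.83 in Het (SD over 4) and 189 ± 13.3 in WT (SD over 4). It rose in KO (1.60, limma adjusted p = 1.66e-08) and fell in Het (-0.34, limma adjusted p = 0.00109), the same order of genotypes as Sdpr and Cav1. Fyn, a Src-family kinase, averaged 25.7 FPKM in KO, 14.6 in Het and 10.7 in WT and rose in both (1.18 and 0.41), and Insr, the insulin receptor, averaged 9.44 FPKM in KO, 8.20 in Het and 4.42 in WT and also rose in both (0.95 and 0.77). Tgfbr1, the type I receptor of transforming growth factor β, rose in KO (0.86, limma adjusted p = 5.7e-05) and differed by 0.10 in Het (limma adjusted p = 0.455). Without KO 4 the number that fell in KO was 1.

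Genes of a flotillin list and of a clathrin list were counted in the same way. The flotillin list does not stand for an entry route at the plasma membrane, since it also holds proteins of the endoplasmic reticulum and of mitochondria. Among flotillins and related membrane scaffold proteins, 9 of 11 were tested, of which 2 rose and 3 fell in KO and 1 rose and 4 fell in Het, with medians of 0.05 and 0.03. Of all genes 23.3% rose and 23.8% fell in KO, and 21.7% rose and 22.1% fell in Het. Flot1, the flotillin-1 gene, averaged 15.9 FPKM in KO, 22.7 in Het and 11 in WT and rose in both (0.51 and 1.0). Erlin1 and Stoml2, which encode scaffold proteins of the endoplasmic reticulum and of mitochondria, fell in both (-0.53 and -0.41 in KO, -0.60 and -0.55 in Het). Erlin2 rose in KO (0.31, limma adjusted p = 0.00224) and fell in Het (-0.17, limma adjusted p = 0.0381), a call lost without KO 3, Het 1, Het 3, Het 4, WT 1 or WT 3 (-0.17 to -0.13) and with upper-quartile scaling (-0.16). Without WT 4 the flotillin genes that rose numbered 4 in KO and 2 in Het, and without Het 1, Het 3 or WT 3 those that fell in Het numbered 2.

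Of the clathrin coat and clathrin endocytosis genes 28 of 34 were tested, and 6 rose and 10 fell in KO, as they did in number in Het, with medians of -0.11 and -0.06. The 6 that rose were near the background share of 23.3% in KO and 21.7% in Het, and for genes that fell that share was 23.8% and 22.1%. With each library in turn left out, the number that fell in KO lay between 5 and 9, always under the 10 of all libraries. Without KO 3, KO 4 or WT 2 it was 6, 5 or 6. Dab2, an adaptor that sorts receptors into clathrin pits, fell to 17.2 ± 1.32 FPKM in KO (SD over 3 libraries) and rose to 54.9 ± 2.64 in Het (SD over 4), against 41.1 ± 4.23 in WT (SD, n = 4). The differences were -1.21 (limma adjusted p = 7.94e-07) and 0.41 (limma adjusted p = 0.00147), opposite in direction to those of Sdpr in both mutant genotypes. Cltb, a clathrin light chain, fell in both (-1.04 in KO and -1.10 in Het), and WT 4 had its highest level, at 65.4 FPKM. Picalm, a clathrin assembly protein, rose in KO (0.66), and Cltc, the clathrin heavy chain, rose in both (0.48 and 0.45).

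Neighbours on the chromosome were compared because Cav1 and Cav2 lie 17204 bases apart. Gene positions are those of the files, on GRCm38, with Cav2 (gene13913) at chromosome 6, 17281185 to 17289130, and Cav1 (gene13914) at 17306335 to 17341328. On their outer sides the nearest tested genes were Tes, a focal adhesion protein, 175359 bases before Cav2, and Met, the receptor of hepatocyte growth factor, 122020 bases after Cav1. Tes measured 45.3, 44.9 and 43.1 FPKM in KO 1, 3 and 4, 30.2, 30.2, 30.7 and 27.9 FPKM in Het 1 to 4, and 35.6, 37.5, 38.9 and 36.7 FPKM in WT 1 to 4. It had the order of Cav1 with no overlap of groups, rising in KO (0.25, limma adjusted p = 0.00292) and falling in Het (-0.31, limma adjusted p = 0.00049). Met rose in KO (0.44, limma adjusted p = 0.00585), at 27.0 to 30.2 FPKM against 17.96 to 24.8 FPKM in WT. In Het it fell to between 15.5 and 18.3 FPKM (-0.30, limma adjusted p = 0.03), a call lost without Het 3, Het 4, WT 1 or WT 3 (-0.28 to -0.22). That call was also lost with upper-quartile scaling (-0.29) and with no filter (-0.30).

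Sdpr also lay among neighbours that were higher in KO. Tmeff2, a transmembrane protein gene 101855 bases before it, measured 10.2, 8.37 and 8.09 FPKM in KO 1, 3 and 4, 2.47, 2.44, 2.61 and 2.48 FPKM in Het 1 to 4, and 3.93, 3.28, 3.79 and 3.01 FPKM in WT 1 to 4. Its groups kept the order of Sdpr without overlap, with differences of 1.13 in KO (limma adjusted p = 4.43e-06) and -0.36 in Het (limma adjusted p = 0.00816). Nabp1, a single-stranded DNA-binding protein gene 162336 bases after it, rose in KO (0.72, limma adjusted p = 0.000131) and differed by 0.11 in Het (limma adjusted p = 0.374). For Sdpr itself Het minus WT was -2.90.

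Around the 7 members, 12 other genes were the nearest tested on 1 side. In KO 6 of them rose, where 23.3% of all genes rose. In Het 2 rose and 3 fell, near the shares of 21.7% and 22.1% over all genes. Besides the 4 above, Atp6v0a1 beside Ptrf (0.35) and Arfgap3 beside Pacsin2 (0.73) rose in KO. Stat3, on the other side of Ptrf, rose in Het (0.88) and differed by 0.09 in KO, unlike Ptrf itself. Neighbours of Prkcdbp and Ehd2 had none past the threshold in KO. Of the 5 loci that overlap a member's span, 4 averaged 0.401 FPKM or less and LOC105246001, within Pacsin2, averaged 1.79 FPKM. Whether neighbouring loci share reads was not tested. The share of all genes with the order KO, WT, Het was not counted, so nothing is read from that order in a neighbour.

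**Figure D5:**
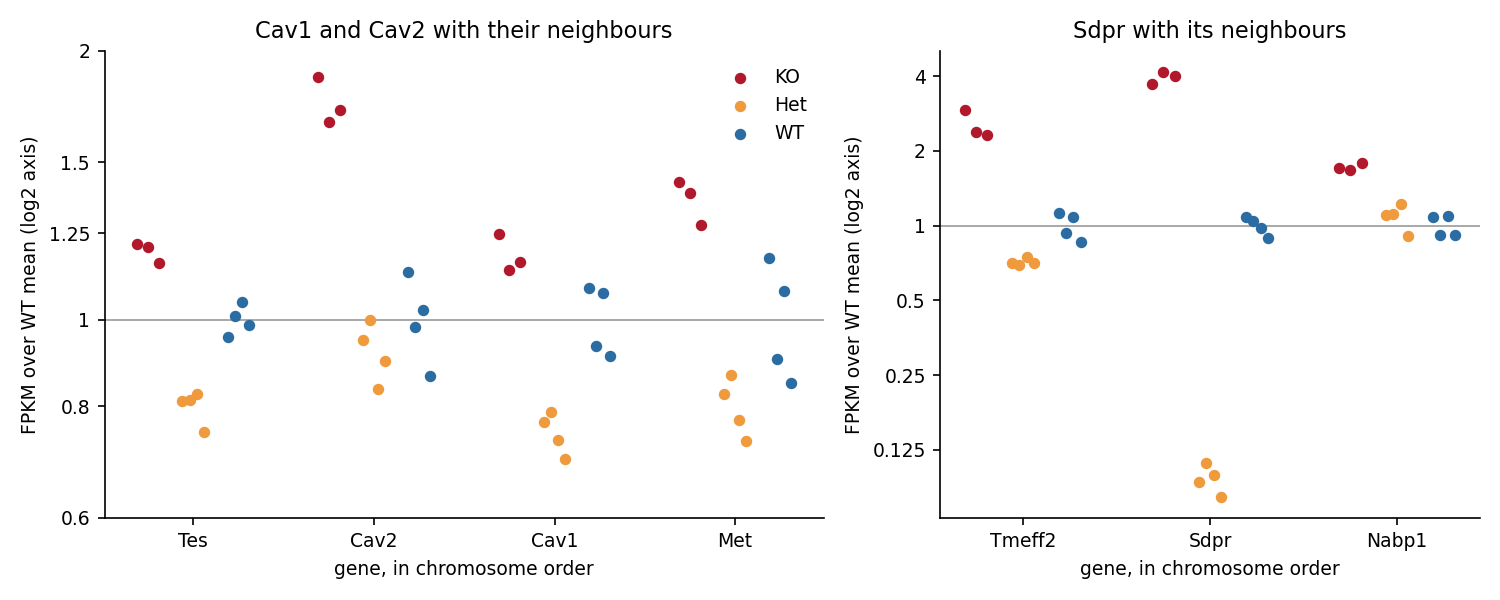
FPKM of each library divided by the WT mean of the gene (vertical axes on a log2 scale), for Tes, Cav2, Cav1 and Met on chromosome 6 (left) and Tmeff2, Sdpr and Nabp1 on chromosome 1 (right), in chromosome order. Points are libraries. The order KO, WT, Het is seen without overlap in Tes, Cav1, Tmeff2 and Sdpr, and the share of all genes with this order was not counted.

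Across the 11 libraries, the members correlated with each other to different degrees. Cav1 and Sdpr had a Pearson correlation of 0.96 in log2(FPKM + 1), Sdpr and Pacsin2 of 0.90, Cav1 and Cav2 of 0.83, and Prkcdbp and Ehd2 of 0.78, whereas Cav1 and Ehd2 had -0.42. Ptrf had between 0.40 (with Cav1) and 0.76 (with Prkcdbp) with the other members, so the set did not divide into separate patterns. All these correlations are descriptions over 11 libraries that fall into 3 genotypes, so the genotype means set most of each value. Sdpr was only the 70th closest gene to Cav1, and Cav2 the 648th, among 8474 candidates with a mean of at least 5 FPKM.

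The genes closest to each member were named by the same correlation. Those of Sdpr included F2r, the thrombin receptor PAR1 (0.998), and Aif1l, an actin-binding protein (0.996). Cav1 had Kdelr3 (0.990), Cpsf2 (0.989) and P4ha1 (0.985), and Cav2 had Fam198b (0.989), Prkar2b (0.989) and Esyt2 (0.988). For Prkcdbp they were Tns1 (0.984), the focal adhesion protein tensin-1, Ephb3 (0.977) and Rnf157 (0.976), and for Ehd2 they were Plin3 (0.976), Zfp516 (0.972) and Mrc2 (0.972). Pacsin2 was nearest to Polr1a (0.976), Traf3 (0.967) and Sec13 (0.965). Ptrf had the weakest matches, Tmcc2 (0.945), Mef2d (0.940) and Zcchc14 (0.933). The transcripts of the closest genes held 46.5% to 51.8% GC for Sdpr, 43.8% to 51.4% for Cav1, 41.1% to 44.5% for Cav2, 51.1% to 52.9% for Pacsin2, 51.1% to 58.7% for Ehd2, 56.2% to 57.0% for Prkcdbp and 55.0% to 57.1% for Ptrf. The part of GC content in these correlations was not tested.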

How the data were processed

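The deposited values are FPKM. The submitters' processing notes name TopHat2 2.1.0, Cufflinks 2.2.1, the genome build GRCm38.p4 and Cuffdiff, the last with no version. Each table lists 48892 loci with symbol, position and interval. Read counts were not used, so depth enters only as a relative estimate from the Cufflinks intervals.

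FPKM of loci with 1 symbol were summed, scaled by the median of ratios over 13981 genes with a mean of at least 1 FPKM (factors 0.941 to 1.04), and kept where at least 1 FPKM in at least 3 libraries (14940 genes). The log2 of FPKM + 1 went into 1 limma fit (version 3.58.1, R 4.3.3) with a mean for each genotype, a spread shared by all 11 libraries and a mean-variance trend. P-values were adjusted over the 14940 genes with the Benjamini-Hochberg method, at a threshold of 0.05. "Rose" and "fell" are used of genes past it. The fit was tested on simulated data. Figures were drawn with matplotlib 3.10.9.

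The members, gene lists and tests were chosen with earlier results of these data known. Text names the 7 members and Actb, the other family genes, up to 4 called genes per list with the largest KO difference, the nearest tested neighbours, and the 3 most correlated genes per member, leaving out predicted and clone names. A gene that this rule names is not reported here. The neighbour comparison was added after the files were seen. Transcript GC came from GENCODE and covered 92.2% of tested genes. Alternatives were no scaling or upper-quartile scaling, a pseudocount of 0.1, no filter, only the primary locus, no trend, a replicate term, leaving out each library, and GC correction.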

Additional observations from a re-analysis of the deposited data

Results flagged for a closer look

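Stoml2, a mitochondrial scaffold gene of the flotillin list, had 1 library apart from its group. WT 1 measured 48.6 FPKM, while the other 3 WT libraries lay between 51.5 and 52.1 FPKM. It was the only library marked among 66 groups of 4 examined for an outlying value, where chance marks about 1 in 20.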

How the results depend on the processing

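Of 224 values of the 7 genes recomputed under 8 other settings, 214 kept their direction and their side of the threshold, and 19 of 28 gene results did so in every setting, the 11 that leave out 1 library included. All values of Sdpr did. Calls of these genes rest on the values that chose them and are no test of them. Without scaling, KO minus WT dropped out of the calls for Cav1 (0.14) and Ehd2 (0.43), Prkcdbp in Het against the midpoint turned to 0.010, and the lower calls were 2 in the family list (KO against WT) and 2 in the flotillin list (KO against Het). Ehd2 in Het against the midpoint lost its call with no trend or no filter (0.36 each) and with a pseudocount of 0.1 (0.36). That call was also lost in 8 of the 11 settings that leave out 1 library. With no filter the family list had 3 lower in KO against WT and 0 higher and 4 lower in Het against WT, from 6 genes tested, and the flotillin list 2 lower in KO against Het, from 11. Using only the primary locus, Ptrf in Het minus WT was -0.00204.

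GC correction, chosen after seeing the data, called 8038 genes in KO against WT, 7763 in Het against WT, 7818 in KO against Het and 7920 against the midpoint, compared with 7041, 6544, 6604 and 6583. It gave Het minus WT of -0.14 for Cav2, now past the threshold, and -0.069 for Ptrf, and for Pacsin3 a KO minus WT of -0.18. It moved the family list to 2 lower in KO against WT, 2 higher in Het against WT, and 1 higher and 2 lower in KO against Het. The flotillin list had 2 higher and 2 lower, and the clathrin list 11 higher, in KO against Het. The cause was not tested.

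Replicate numbers were not treated as pairs in the main fit. Same-numbered libraries correlated by -0.10 to 0.35 in their deviations, 5 of 10 pairs over 0.1, and 6 of 11 libraries matched best with their own number. The highest values of all pairs were same-numbered: KO 4 with WT 4 (0.35), KO 1 with WT 1 (0.33), Het 4 with WT 4 (0.26) and KO 4 with Het 4 (0.25). These values give no ground for leaving the numbers out, and whether a number marks a shared batch was not tested. With the replicate block the calls were 7293, 6990, 6879 and 7023 in the same order of comparisons, Ptrf in KO minus WT (0.17) passed the threshold, the family list had 1 higher in KO against Het, and Pacsin3 in KO minus WT was -0.00530.

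With 1 library left out, the lowest and highest values of the results that changed were 0.19 and 0.28 (Cav1), 0.13 and 0.24 (Ptrf), 0.44 and 0.68 (Ehd2) and -0.16 and 0.28 (Pacsin3) for KO minus WT, -0.034 and 0.056 (Ptrf) and -0.22 and -0.16 (Pacsin2) for Het minus WT, 0.13 and 0.22 (Ptrf) for KO minus Het, and -0.17 and 0.079 (Prkcdbp) and 0.30 and 0.43 (Ehd2) for Het against the midpoint. The counts called lower in KO against WT ran from 5 to 9 in the clathrin list, 1 to 2 in the family list and 1 to 2 at caveolae. In the flotillin list 2 to 4 were higher in KO against WT, 2 to 4 lower and 1 to 2 higher in Het against WT, and 0 to 1 lower and 1 to 2 higher in KO against Het. The family list had 0 to 1 higher in Het against WT and in KO against Het. Among 48 results of other named genes, 368 of 384 values under other settings and 506 of 528 with 1 library left out were the same, and without scaling Pacsin3 (-0.074) and Stat3 (-0.00410) turned in KO minus WT. Depth limits Prkcdbp most, and Sdpr in Het, whose interval half-width reached 28.5%.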
